A study of Caenorhabditis elegans with 40 samples.

Results

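Old adults of Caenorhabditis elegans carrying the ok371 allele of octr-1 were compared between 15 and 20 °C. The members are the 10 libraries of old octr-1 mutants in the deposited comparison of these temperatures, 5 per temperature, of 40 libraries in the series. Both groups share the octr-1(ok371) genotype, the OP50 food and the whole-animal source, and polyadenylated RNA was sequenced with a stranded kit. Animals at 15 °C were collected on day 24 of adulthood and animals at 20 °C on day 14, so temperature and day cannot be told apart in any value below. By its title the series asks how temperature, aging and OCTR-1 relate. A comparison with 10 old wild-type libraries kept at these temperatures and collected on these days is used only to show where the mutants differ. The labels do not say whether replicates were separate cultures, so every p-value rests on the variation among these libraries, part of which may be technical.

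OCTR-1 is a G protein-coupled receptor of neurons that responds to octopamine, the invertebrate counterpart of noradrenaline, and it is known in C. elegans for its neural control of immune and protein-folding genes. Octopamine is made from tyrosine through tyramine. C. elegans lives longer in the cold, and its intestine is at once its gut, its fat store, its main site of immune effectors and the source of yolk proteins, which are still made after reproduction ends. In a whole animal, fewer cells of a type and less RNA per cell cannot be told apart.

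Libraries held 29.4 to 34.2 M reads assigned to genes at 15 °C and 27.9 to 39.2 M at 20 °C, with reads in 22736 to 23755 features. Values are normalized reads, the read count of a gene divided by the size factor of its library, and CPM is the read count scaled to a library's total. Replicate 1 stood apart from the others of its group, with a chi-square per gene of 6.78 to 9.86 against its partners at 15 °C and 5.25 to 8.21 at 20 °C, where the other pairs lay between 1.86 and 5.88. In another deposited table, of mutants at 25 and 20 °C, the columns named 20 °C are read for read the libraries that 2 other tables name 25 °C, and the reverse. The authors' deposited table of that comparison has fold changes of the sign opposite to its own column names in all 8547 genes compared, whereas in the table used here all 7390 have the sign of the columns as named. The names of the table used here were therefore kept, and the values with the other naming are in the closing section.

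Most of the tested features differed between the groups, mostly by small amounts. Of 16083 features with at least 10 normalized reads in at least 5 libraries, 10699 (66.5%) passed limma's test at a Benjamini-Hochberg adjusted p under 0.05. Of these 5095 were higher at 15 °C (31.7% of all tested) and 5604 lower (34.8%), and 58.6% of the called features differed by less than 1.5-fold. At least 2-fold changes were 750 higher (4.66%) and 1421 lower (8.84%), so the larger changes were more often falls at 15 °C. The groups did not overlap in 3850 features that were higher (23.9%) and 4563 that were lower (28.4%). Fold changes are powers of 2 of the log2(value + 1) difference, which understates the change of low genes. A share of 31.7% higher or 34.8% lower is the background against which each gene list below is read.

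octr-1 itself was low at both temperatures and higher at 15 °C. Its normalized reads were 39.8, 46.7, 42.96, 42.0 and 56.3 at 15 °C and 29.7, 37.6, 36.4, 31.6 and 25.3 at 20 °C. All 5 libraries at 15 °C lay above all 5 at 20 °C. The difference was 1.41-fold, 0.49 ± 0.15 on the log2 scale (SE), with an adjusted p of 0.0063 in limma. The old wild type had 6.12 ± 0.34 CPM of octr-1 at 15 °C and 6.56 ± 0.428 at 20 °C (SD, n = 5), against 1.42 ± 0.19 and 0.981 ± 0.144 in the mutants. The counts do not show whether the remaining reads lie inside or outside the deleted stretch.

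Intestinal RNA was lower at 15 °C. The 21 genes of the intestinal list cover gut structure, uptake, transcription factors, proteases and a ferritin. Of these, 20 were lower and 1 higher, 19 of the lower ones by at least 2-fold. The median log2 fold was -1.56 against a median of 0 over all tested features. elt-2, the GATA factor that maintains intestinal identity, had 47.9, 66.8, 61.8, 70.8 and 71.7 normalized reads at 15 °C and 214, 205, 183, 182 and 167 at 20 °C. The groups were far apart, at 2.97-fold lower for 15 °C (log2 -1.57 ± 0.11, limma adjusted p = 2.4e-10). Its partner GATA factor elt-7 fell 2.87-fold, the gut esterase ges-1 fell by 1.87 on the log2 scale, and the transporter gene pgp-1 fell 3.16-fold. The intestinal list summed to 897 to 1127 CPM at 15 °C and 2195 to 2325 CPM at 20 °C. No defining marker of a tissue was at 0, and the part that fewer gut cells or less gut RNA has in the falls of other gut-expressed genes was not tested.

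**Figure D1:**
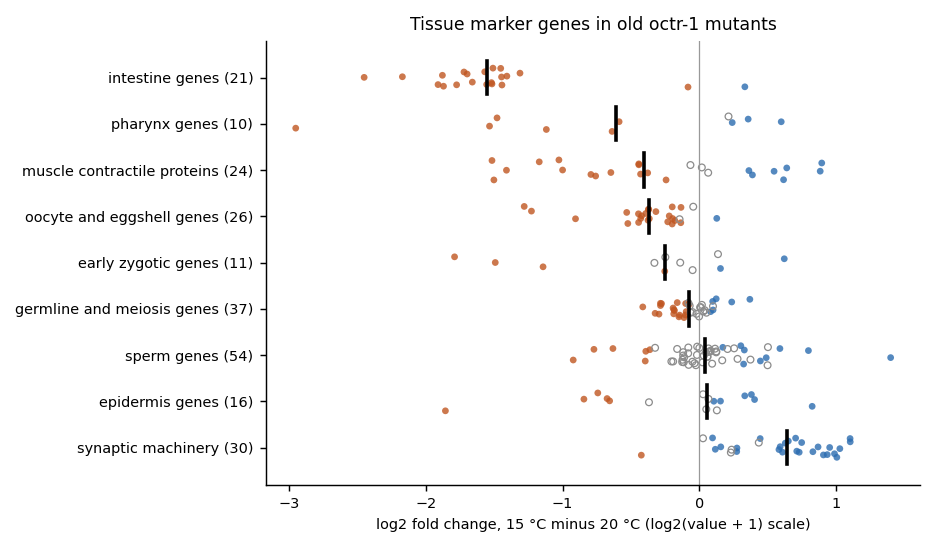
Log2 fold change of each tested member of 9 tissue lists (x axis, 15 minus 20 °C, number of members in brackets), with filled points called higher (blue) or lower (orange), open points not called, and a black bar at the median. Intestine genes lie to the left with a median of -1.56, and synaptic genes lie to the right with a median of 0.64.

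The yolk proteins, which the intestine makes and secretes, fell as a group. vit-2 had 33924, 52265, 34163, 52591 and 50039 normalized reads at 15 °C and 146528, 141525, 145310, 150336 and 125237 at 20 °C. Replicates 1 and 3 at 15 °C were the lowest, and the groups did not overlap. vit-2 was 3.24-fold lower at 15 °C (log2 -1.70 ± 0.15, limma adjusted p = 6.3e-06). All 6 vitellogenins were lower, by log2 folds between -1.75 and -1.59: vit-6 fell 3.28-fold, vit-5 3.24-fold, vit-1 3.01-fold, vit-3 3.24-fold and vit-4 3.35-fold. vit-3, vit-4 and vit-5 are near-identical copies, so their single values are uncertain. Together the yolk genes held 3648 to 5990 CPM at 15 °C and 13996 to 16929 CPM at 20 °C.

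Lysozymes, which digest bacterial cell walls, were lower without exception among the 13 tested, 11 of them by at least 2-fold, at a median of -1.93. The invertebrate lysozyme gene ilys-3 had the deepest fall of all called genes without overlap whose mean reached 100 normalized reads. It had 175, 129, 137, 146 and 156 normalized reads at 15 °C and 3324, 3396, 3135, 3394 and 3117 at 20 °C. The 20 °C libraries were 21.97-fold higher, with a log2 fold of -4.46 ± 0.07 for 15 °C and a limma adjusted p of 4.6e-20. Its relative ilys-2 fell 14.4-fold, and lys-3 and lys-2 of the protist type fell 3.80-fold and 4.97-fold.

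Other proteins of the gut lumen and of immune defence were lower too. Saposin-like proteins, which form pores in bacterial membranes, counted 16 lower and 0 higher of 19, with a median of -1.07. spp-20 led them, with 214, 186, 192, 210 and 146 normalized reads at 15 °C and 807, 880, 869, 1053 and 934 at 20 °C, without overlap (4.80-fold, limma adjusted p = 1.5e-12). spp-1 fell 3.17-fold and spp-16 3.76-fold. C-type lectins, secreted proteins that bind sugars, counted 74 lower and 11 higher of 116, with a median of -0.79. clec-150 was at 341 to 437 normalized reads at 15 °C and at 1404 to 1582 at 20 °C, with the medians at 383 and 1529 and no overlap. It fell 3.86-fold, clec-5 5.53-fold and clec-47 12.4-fold.

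Many listed immune effectors of the intestine are targets of p38 MAP kinase signalling or CUB-like. The list split into 13 lower and 6 higher of 21, with a median of -1.02. Its summed level went the other way, at 1801 to 1988 CPM at 15 °C and 1384 to 1447 CPM at 20 °C. C17H12.8 fell 3.81-fold and dod-22 4.98-fold. The kinase gene sek-1 of the p38 pathway, which is counted in this list, was higher. It had 2996, 2983, 3016, 2876 and 3067 normalized reads at 15 °C and 1788, 1747, 1725, 1684 and 1744 at 20 °C. All values at 15 °C were higher, by 1.72-fold (limma adjusted p = 8.7e-14). Antimicrobial peptides listed as epidermal were grouped by gene name, so some members may act in other tissues. They counted 29 lower and 4 higher of 39, with a median of -1.02. Among them abf-2, a defensin-like peptide, had 268, 257, 289, 271 and 248 normalized reads at 15 °C and 957, 836, 768, 835 and 942 at 20 °C. It fell 3.24-fold without overlap (limma adjusted p = 3.4e-14), fipr-1 fell 5.02-fold and fipr-2 4.30-fold.

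**Figure D2:**
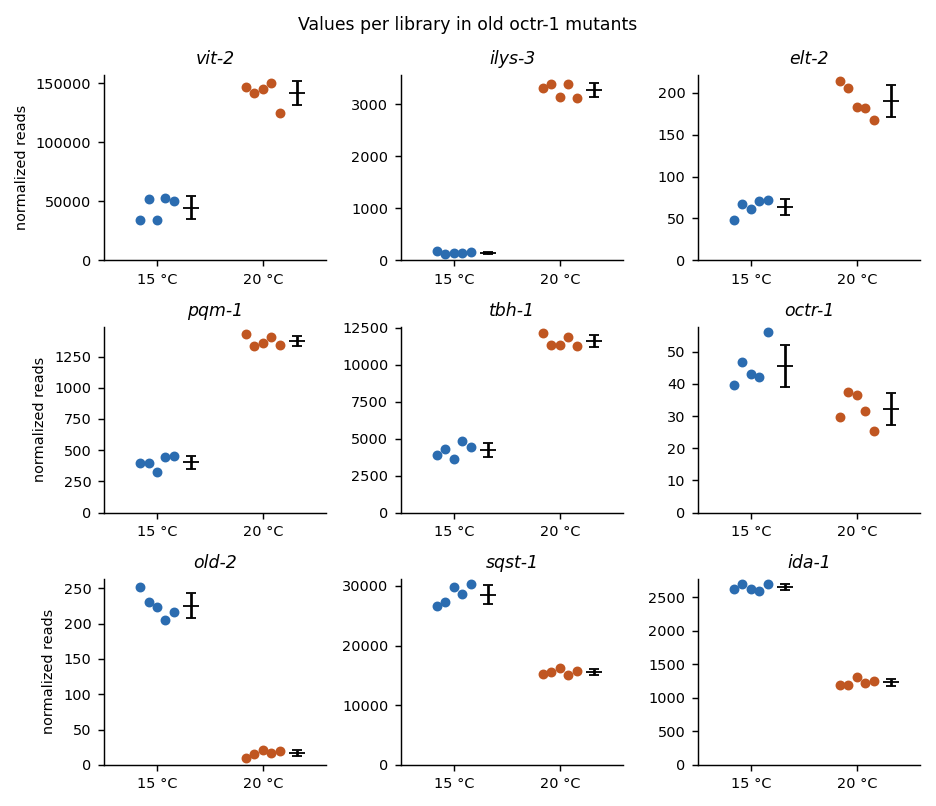
Normalized reads of 9 genes in each of the 5 libraries per temperature (points), with mean ± SD beside them, on linear axes from 0. The groups do not overlap in any of the 9 genes. vit-2, ilys-3, elt-2, pqm-1 and tbh-1 are lower at 15 °C, and octr-1, old-2, sqst-1 and ida-1 are higher.

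Proteases of the gut and lysosome fell together. All 12 aspartyl proteases tested, of 19 in the list, were lower, 11 by at least 2-fold, at a median of -1.70. All 9 cysteine cathepsins were lower at a median of -1.52. Among these proteases, asp-1, asp-3, cpr-1 and cpr-6 are also members of the intestinal list. asp-13 had 235, 326, 201.2, 275 and 271 normalized reads at 15 °C and 1124, 1037, 994, 1110 and 1032 at 20 °C, a fall of 4.08-fold without overlap (limma adjusted p = 5.1e-11). asp-2 fell 3.71-fold and the lysosomal asp-4 1.63-fold. cpz-2, a cathepsin Z, had 326, 323, 301, 396 and 331 normalized reads at 15 °C and 1346, 1368, 1269, 1497 and 1441 at 20 °C, which is 4.13-fold lower at 15 °C without overlap (limma adjusted p = 3.2e-15). cpr-3 fell 3.29-fold and cpr-2 4.32-fold.

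The V-ATPase, the proton pump that acidifies lysosomes, showed a narrower change, with 10 of 19 subunits lower, 1 higher and a median of -0.10. Only vha-6, the subunit of the apical gut membrane and also a member of the intestinal list, passed 2-fold among them. It had 425, 564, 398, 607 and 522 normalized reads at 15 °C and 2175, 2254, 2177, 2352 and 2265 at 20 °C, a 4.51-fold fall without overlap (limma adjusted p = 1.8e-09). vha-12 and vha-3 fell 1.34-fold and 1.28-fold. Autophagy genes went the other way more often, with 16 higher and 7 lower of 30 and a median of 0.11. sqst-1, the p62 receptor that brings cargo to autophagosomes, had 26651, 27323, 29758, 28636 and 30399 normalized reads at 15 °C and 15283, 15638, 16289, 15070 and 15694 at 20 °C. It rose 1.83-fold without overlap (limma adjusted p = 1.4e-13), the lipid kinase gene vps-34 rose 1.35-fold, and sepa-1, a substrate of embryonic autophagy, fell 1.65-fold.

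RNAs of fat metabolism genes were more often lower than higher at 15 °C at several steps. Fatty acid synthesis and desaturase genes counted 15 lower and 2 higher of 23 (median -0.29), and acyl-CoA activation and beta-oxidation 33 lower and 9 higher of 52 (median -0.29). fat-2, the delta-12 desaturase, had 5600, 6162, 5042, 6720 and 6067 normalized reads at 15 °C and 19353, 19382, 19220, 20320 and 18989 at 20 °C. The groups were widely separated, at 3.30-fold (limma adjusted p = 2e-12). fat-5, a palmitoyl-CoA desaturase, fell 5.10-fold and the elongase gene elo-6 3.65-fold. daf-22, the peroxisomal thiolase that shortens ascaroside pheromones, had 293, 245, 251, 304 and 271 normalized reads at 15 °C and 774, 803, 819, 765 and 791 at 20 °C. It fell 2.90-fold without overlap (limma adjusted p = 7.2e-14), dhs-28, which acts in the same pathway, 1.97-fold, and the acyl-CoA synthetase gene acs-22 2.198-fold.

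Lipases and lipid droplet genes counted 9 lower, 8 of them at least 2-fold, and 2 higher of 14, at a median of -1.23. hosl-1, the hormone-sensitive lipase, was 1 of the higher genes, with 2551, 2666, 2731, 2778 and 2740 normalized reads at 15 °C and 1810, 1985, 1892, 1880 and 1828 at 20 °C (1.43-fold, no overlap, limma adjusted p = 1.5e-10). lipl-7 rose 1.40-fold, whereas dgat-2, which makes triglycerides, fell 2.90-fold. Intracellular lipid-binding proteins counted 8 lower and 1 higher of 9, at a median of -0.75. lbp-6, also a member of the intestinal list, had 707, 694, 618, 771 and 621 normalized reads at 15 °C and 1865, 1906, 1751, 1928 and 1869 at 20 °C, 2.74-fold lower without overlap (limma adjusted p = 2.7e-14). lbp-3 fell 1.74-fold and lbp-9 1.30-fold.

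Sphingolipid enzymes counted 15 lower and 2 higher of 19, with a median of -0.33. cgt-2, a ceramide glucosyltransferase, had 33.5, 43.5, 35.6, 46.4 and 38.6 normalized reads at 15 °C and 131, 134, 141.7, 135 and 130 at 20 °C, a 3.36-fold fall without overlap (limma adjusted p = 3.4e-11). sptl-1, which starts sphingolipid synthesis, fell 1.32-fold and the ceramide synthase gene hyl-2 1.39-fold. Propionate metabolism counted 7 lower and 2 higher of 10, at a median of -0.25. nhr-68, a receptor that switches on the propionate shunt, had 129, 145, 128, 164 and 142.3 normalized reads at 15 °C and 308, 328, 322, 378 and 290 at 20 °C (2.29-fold lower, no overlap, limma adjusted p = 2.4e-10). acdh-1, the acyl-CoA dehydrogenase of that shunt, fell 3.32-fold and ech-6 1.19-fold.

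Methionine and folate cycle genes counted 10 lower and 4 higher of 18, with a median of -0.20. pmt-2, which makes phosphatidylcholine by methylation, had 749, 813, 640, 819 and 783 normalized reads at 15 °C and 1602, 1817, 1672, 1680 and 1669 at 20 °C, 2.22-fold lower without overlap (limma adjusted p = 2.1e-12). pmt-1 fell 1.86-fold and sams-1, the S-adenosylmethionine synthetase, 1.69-fold. Trehalose genes counted 5 lower and 1 higher of 8, with the trehalase genes tre-5 (2.70-fold), tre-2 (1.41-fold) and tre-1 (1.35-fold) lower. Enzymes of the TCA and glyoxylate cycle counted 17 lower and 1 higher of 22 (median -0.21), and nuclear-encoded respiratory subunits 27 lower and 3 higher of 40 (median -0.16). mdh-2, a malate dehydrogenase, had 5841, 6747, 6741, 6948 and 7443 normalized reads at 15 °C and 9949, 9994, 10066, 10100 and 9554 at 20 °C. The fall was 1.48-fold without overlap (limma adjusted p = 7.5e-09), and idhb-1 and aco-2 fell 1.32-fold and 1.27-fold.

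Of the respiratory genes, sdha-2 of complex II had 3916, 4005, 4055, 4137 and 4111 normalized reads at 15 °C and 5425, 5237, 5002, 5301 and 4985 at 20 °C, 1.28-fold lower without overlap (limma adjusted p = 5.8e-09). The ATP synthase genes asb-2 and asb-1 fell 1.33-fold and 1.22-fold. The log2 folds of the 40 members lay between -0.46 and 0.29. No gene of the mitochondrial genome was matched by name, so these 12 genes were not analysed here. Glycolysis and gluconeogenesis held 9 lower and 5 higher of 21. Among the higher was aldo-1, an aldolase, with 5150, 5413, 5878, 5918 and 6037 normalized reads at 15 °C and 2387, 2397, 2688, 2484 and 2511 at 20 °C (2.28-fold, no overlap, limma adjusted p = 2.9e-14). gpd-2 and gpd-3, near-identical glyceraldehyde-3-phosphate dehydrogenase genes whose reads may be split between them, rose 1.64-fold and 1.63-fold.

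Of the detoxification families, UDP-glucuronosyltransferases and cytochrome P450s were mostly lower. UDP-glucuronosyltransferases, which attach sugars to foreign compounds, counted 44 lower and 13 higher of 61, 29 of the lower ones at least 2-fold, at a median of -0.96. ugt-63 had 72.4, 76.4, 72.3, 95.1 and 81.6 normalized reads at 15 °C and 459, 444, 472, 470 and 485 at 20 °C, a 5.82-fold fall without overlap (limma adjusted p = 3.2e-15). ugt-41 fell 3.65-fold and ugt-25 2.73-fold. Cytochrome P450 genes counted 43 lower and 10 higher of 68 (median -0.53), with cyp-35C1 and cyp-34A9 4.07-fold and 4.19-fold lower. The P450 gene of smallest p, cyp-36A1, rose instead. It had 1494, 1505, 1647, 1432 and 1498 normalized reads at 15 °C and 381, 416, 429, 399 and 430 at 20 °C, 3.68-fold higher without overlap (limma adjusted p = 3.3e-16).

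Glutathione S-transferases, which conjugate glutathione, were split into 17 higher and 16 lower of 44, close to the background in both directions. gst-5 had 4966, 4494, 5114, 4798 and 4441 normalized reads at 15 °C and 1204, 1311, 1366, 1268 and 1352 at 20 °C, a rise of 3.66-fold without overlap (limma adjusted p = 5.7e-17). gst-30 rose 3.90-fold and gst-13 fell 2.49-fold. Of 5 flavin monooxygenases, 2 rose and 2 fell: fmo-4 rose 1.49-fold, fmo-2 rose 2.37-fold and fmo-3 fell 2.29-fold. fmo-4 had 2685, 2515, 2637, 2663 and 2634 normalized reads at 15 °C, all above the 1725, 1775, 1798, 1677 and 1839 at 20 °C. Antioxidant enzymes counted 12 lower and 6 higher of 27. trx-3, an intestinal thioredoxin, had 293, 237, 240, 283 and 243 normalized reads at 15 °C and 905, 875, 957, 1011 and 992 at 20 °C (3.66-fold lower, no overlap, limma adjusted p = 1.6e-14), the peroxisomal catalase gene ctl-2 fell 3.37-fold, and the extracellular superoxide dismutase gene sod-4 rose 1.95-fold.

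Genes for iron storage, iron import and metal binding counted 8 lower and 0 higher of 9, with a median of -1.29. ftn-2, a ferritin, had 971, 987, 973, 1183 and 1039 normalized reads at 15 °C and 2311, 2301, 2255, 2500 and 2401 at 20 °C, 2.29-fold lower without overlap (limma adjusted p = 1.3e-13). The second ferritin gene ftn-1, also a member of the intestinal list, fell 3.76-fold and the iron importer smf-3 4.89-fold. Genes known in C. elegans to rise when insulin signalling is low, the outputs of DAF-16, were lower in 13 and higher in 3 of 20 cases, with a median of -0.84. ctl-2 led them by p, with 449, 485, 454, 584 and 528 normalized reads at 15 °C and 1508, 1797, 1568, 1834 and 1713 at 20 °C and no overlap (limma adjusted p = 1.2e-12), and dod-6 (6.99-fold) and fat-5 were next.

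Insulin-like peptides, the ligands of the receptor DAF-2, counted 15 lower and 7 higher of 28, at a median of -0.56. ins-7, an intestinal agonist, had 76.9, 65.8, 58.7, 75.2 and 62.9 normalized reads at 15 °C and 222, 231, 218, 245 and 264 at 20 °C. It was 3.45-fold lower at 15 °C without overlap (limma adjusted p = 3.1e-12), ins-2 2.42-fold lower and ins-20 2.01-fold higher. Inside the cell, 5 of 15 genes of the insulin and TOR pathway were higher and 4 lower, both near or below the background. The kinase gene akt-2 had 1452, 1354, 1333, 1409 and 1397 normalized reads at 15 °C and 854, 816, 815, 790 and 799 at 20 °C, 1.70-fold higher without overlap (limma adjusted p = 2.9e-12). sgk-1, a kinase of the same branch, fell 2.83-fold. Smaller changes were called in the AMPK subunit genes aak-1 (1.29-fold higher) and aak-2 (1.07-fold lower), pdk-1 (1.16-fold higher), the Raptor gene daf-15 (1.11-fold higher), akt-1 (1.07-fold lower) and the S6 kinase gene rsks-1 (1.07-fold higher). aak-2, pdk-1 and rsks-1 overlapped between the groups, and the call of aak-2 was lost in 12 alternatives, that of akt-1 in 2 and that of rsks-1 without replicate 2 at 15 °C (adjusted p = 0.0649 with limma).

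Among 29 regulators of stress, temperature response or lifespan, 11 were higher and 9 lower, both near the background. The zinc finger factor pqm-1, which is known to act opposite to DAF-16, had 395, 398, 325, 445 and 454 normalized reads at 15 °C and 1434, 1338, 1358, 1406 and 1339 at 20 °C. It was 3.42-fold lower at 15 °C without overlap (limma adjusted p = 2.1e-13). Besides elt-2 and elt-7, the lower regulators were zip-10 (2.23-fold), a bZIP factor known from cold exposure, the lipid regulators nhr-80 (2.49-fold) and sbp-1 (1.53-fold), iglr-2 (1.199-fold), which works with PAQR-2 in adaptation to cold, daf-9 (1.41-fold), which makes dafachronic acid, and nhr-66 (1.05-fold). The dafachronic acid receptor gene daf-12 was higher by 1.90-fold, with all 5 libraries between 1514 and 1630 normalized reads against 775 to 925 at 20 °C. The other rises were in skn-1 (1.312-fold), xbp-1 (1.26-fold), hlh-30 (1.29-fold), nhr-49 (1.13-fold), mdt-15 (1.12-fold) and hsf-1 (1.06-fold). nhr-66, daf-9, mdt-15 and hsf-1 overlapped between the groups, and the calls of nhr-66, daf-9 and hsf-1 were each lost in several alternatives.

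4 further members of these 29 regulators that passed as higher are channel and cyclase genes of neurons. tax-4, a subunit of the cyclic nucleotide-gated channel of thermosensory neurons, had 118, 103.98, 112, 111 and 131 normalized reads at 15 °C and 37.1, 72.8, 68.8, 51.2 and 58.8 at 20 °C. The groups did not overlap, at 2.03-fold higher (limma adjusted p = 5.2e-06). The partner subunit gene tax-2 rose 1.36-fold, a call lost with all 8 groups in 1 fit (adjusted p = 0.391) and without replicate 1 of both groups (adjusted p = 0.0816), the AFD guanylyl cyclase gene gcy-23 1.57-fold and the cold-sensitive channel gene trpa-1 1.19-fold.

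Of the 10 genes of octopamine and tyramine signalling, both synthesis genes were lower, and 4 receptor genes, the transporter gene cat-1 and octr-1 were higher. tbh-1, the tyramine beta-hydroxylase that makes octopamine and is expressed in the RIC neurons and the gonadal sheath, had 3905, 4316, 3640, 4803 and 4420 normalized reads at 15 °C and 12135, 11301, 11308, 11887 and 11244 at 20 °C. It was 2.76-fold lower at 15 °C, without overlap (log2 -1.46 ± 0.06, limma adjusted p = 2.7e-11). tdc-1, the tyrosine decarboxylase of the preceding step, fell 1.14-fold, from 8358 ± 323 to 7344 ± 316 (SD, n = 5). Of the other receptor genes 4 rose: ser-3, an octopamine receptor, from 211 ± 15.6 to 311 ± 12.99 (1.47-fold), the tyramine receptors tyra-2 (1.82-fold) and tyra-3 (1.47-fold), and the tyramine-gated chloride channel lgc-55 (1.83-fold). cat-1, the vesicle transporter that loads amines, had 86.8, 80.6, 85.9, 84.0 and 83.8 normalized reads at 15 °C and 35.3, 44.6, 35.4, 40.1 and 40.0 at 20 °C, 2.13-fold higher (limma adjusted p = 4e-08). The remaining receptor genes did not pass: ser-2, a tyramine receptor, was at 42.4 ± 8.33 normalized reads at 15 °C and 34.6 ± 7.31 at 20 °C, and ser-6, an octopamine receptor, at 29.01 ± 4.18 and 34.7 ± 4.66 (SD, n = 5). With octr-1 itself, 6 of the 10 genes of this list were higher and 2 lower, and the median log2 fold was 0.52.

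Wider neuronal RNA was higher as well. Of 30 genes of the synaptic machinery 25 were higher and 1 lower, at a median of 0.64. ida-1, a dense-core vesicle protein, had 2632, 2700, 2630, 2600 and 2698 normalized reads at 15 °C and 1199, 1186, 1309, 1218 and 1249 at 20 °C, which is 2.15-fold higher without overlap (limma adjusted p = 3.6e-15). The calcium channel gene unc-2 rose 1.88-fold, the priming factor gene unc-13 1.94-fold and the acetylcholine transporter gene unc-17 by 0.83 on the log2 scale. snb-1, synaptobrevin, rose by 0.12 on that scale. The rise did not hold for every gene: unc-25 was the 1 lower, with a log2 fold of -0.42, and unc-47, cat-2, tph-1 and unc-57 did not pass. The summed level of this list was 1274 to 1322 CPM at 15 °C and 937 to 960 CPM at 20 °C.

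Neuropeptide genes counted 25 higher and 12 lower of 60, with a median of 0.24. flp-5 had 844, 920, 950, 874 and 910 normalized reads at 15 °C and 388, 318, 376, 307 and 360 at 20 °C, 2.58-fold higher without overlap (limma adjusted p = 6.1e-13). flp-25 and nlp-16 rose 2.60-fold and 1.76-fold. Only 209 of 1362 chemoreceptor genes reached the minimum, and 77 were higher and 33 lower, with a median of 0.28. Of these str-176 fell, with 175, 171, 137, 187 and 162 normalized reads at 15 °C and 578, 579, 601, 640 and 594 at 20 °C (3.59-fold, no overlap, limma adjusted p = 7e-14), while srr-4 rose 2.86-fold and srw-85 2.43-fold. Nuclear hormone receptors counted 94 higher and 55 lower of 215, at a median of 0.09. nhr-57 had 519, 554, 605, 574 and 585 normalized reads at 15 °C and 213, 189, 177, 183 and 205 at 20 °C, 2.93-fold higher without overlap (limma adjusted p = 1.6e-13), nhr-3 rose 1.95-fold and nhr-67 2.14-fold.

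**Figure D3:**
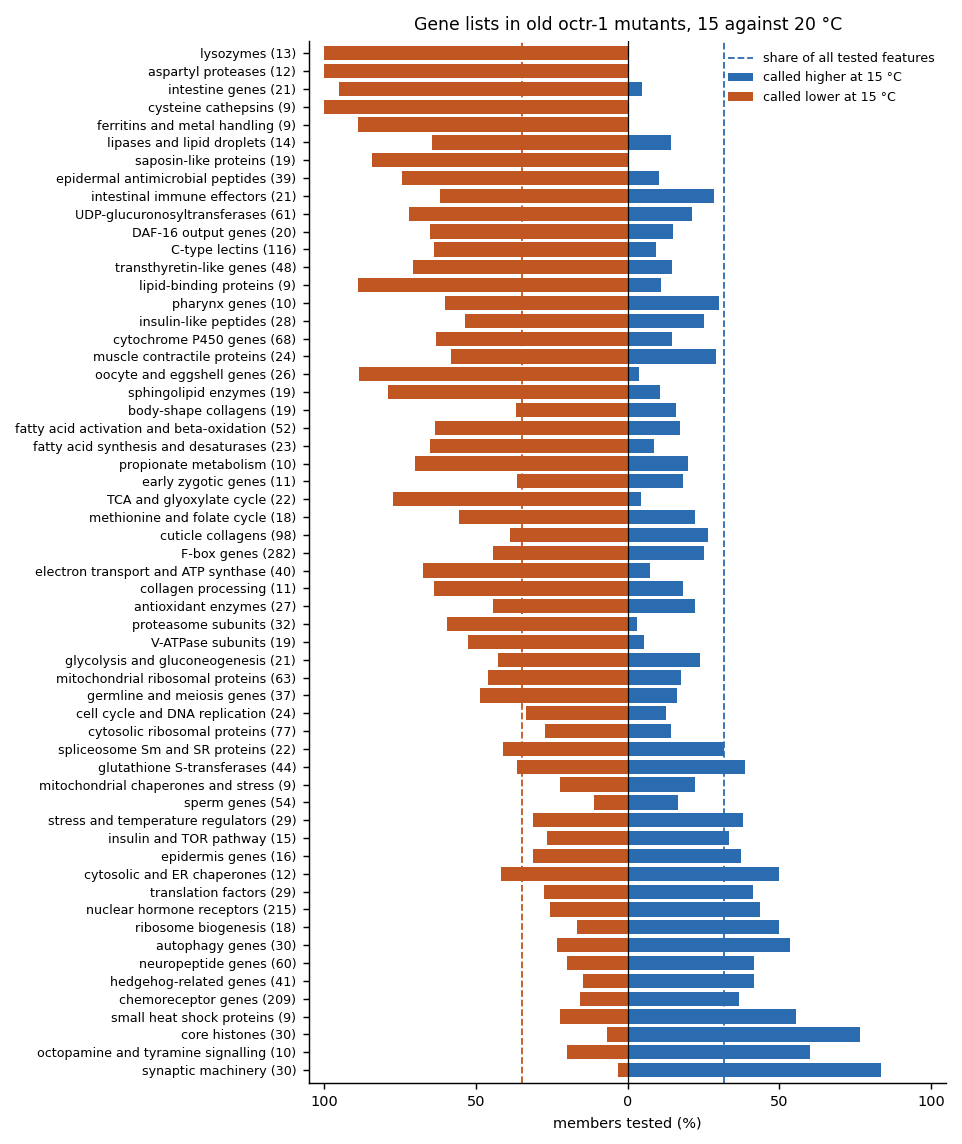
Share of the tested members of each gene list called higher (blue, to the right) or lower (orange, to the left) at 15 °C, for lists with at least 9 members tested (number in brackets), ordered by median log2 fold, with dashed lines at the shares of all tested features, 31.7% higher and 34.8% lower. Lysozymes, aspartyl proteases and cysteine cathepsins are lower in every tested member, and synaptic genes and core histones lie mostly on the higher side.

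Muscle and pharynx genes went both ways, with more members lower. Of 24 contractile proteins of body muscle 14 were lower and 7 higher, at a median of -0.40, and of 10 pharynx genes 6 were lower and 3 higher, at a median of -0.61. mlc-2, a regulatory myosin light chain, had 472, 493, 455, 512 and 528 normalized reads at 15 °C and 1490, 1461, 1377, 1369 and 1350 at 20 °C, 2.86-fold lower without overlap (limma adjusted p = 4.4e-15). The troponin I gene unc-27 fell 2.25-fold, and the body-muscle myosin genes unc-54 (1650 ± 186 against 3294 ± 293 normalized reads, SD, n = 5) and myo-3 (644 ± 44.7 against 1013 ± 118) fell, while the attachment protein gene unc-97 rose 1.85-fold. The giant filament protein genes ttn-1, unc-89 and unc-22 were also higher, with log2 folds of 0.90, 0.64 and 0.39, as was the actin gene act-4 (0.55). The summed level of the muscle list was 2881 ± 101 CPM at 15 °C and 2815 ± 93.3 CPM at 20 °C (SD, n = 5). In the pharynx tni-4, a troponin I, had 204, 175, 163, 226 and 206 normalized reads at 15 °C and 535, 561, 502, 530 and 584 at 20 °C (2.79-fold lower, no overlap, limma adjusted p = 4.1e-12), and the pharyngeal myosin gene myo-2 fell 2.17-fold and tnc-2 2.90-fold. The myosin gene myo-5 of the pharynx was higher, with a log2 fold of 0.24.

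Epidermal genes were divided, with 6 of 16 higher and 5 lower, both near the background, and a median of 0.06. che-14, a Dispatched-related protein of epithelial secretion, had 356, 328, 350, 322 and 301 normalized reads at 15 °C and 176, 205, 207, 165 and 179 at 20 °C, 1.77-fold higher without overlap (limma adjusted p = 1.3e-08). The spectraplakin gene vab-10 rose 1.32-fold, and the adult collagen gene col-19 fell 3.62-fold. Cuticle collagens as a family counted 38 lower and 26 higher of 98, both near the background. Of the 98, 23 fell at least 2-fold, against 8.84% of all tested features. col-8 had 106, 103, 91.1, 111 and 138 normalized reads at 15 °C and 432, 391, 430, 361 and 361 at 20 °C, 3.60-fold lower without overlap (limma adjusted p = 2.3e-12), col-179 fell 5.10-fold and col-106 3.73-fold. The collagens whose mutants change body shape held 7 lower and 3 higher of 19, a lower share near the background and a higher share below it, with sqt-3 1.41-fold, dpy-10 1.29-fold and dpy-7 1.79-fold lower. sqt-3 was at 508 to 596 normalized reads at 15 °C and at 685 to 794 at 20 °C. Among genes of collagen processing 7 of 11 were lower and 2 higher. dpy-31, a collagen peptidase, had 375 to 415 normalized reads at 15 °C and 583 to 706 at 20 °C (1.66-fold lower, limma adjusted p = 1.1e-09). mlt-7 (1.41-fold lower) and tsp-15 (1.56-fold lower) followed.

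Secreted proteins of other families differed in direction. Transthyretin-like genes counted 34 lower and 7 higher of 48, with a median of -0.79. ttr-37 had 29.8, 33.95, 34.6, 43.1 and 37.5 normalized reads at 15 °C and 198, 175, 178, 178 and 176 at 20 °C, 4.97-fold lower without overlap (limma adjusted p = 4.4e-13), ttr-5 fell 2.65-fold and ttr-14 rose 2.17-fold. Hedgehog-related genes counted 17 higher and 6 lower of 41, at a median of 0.24. grl-10 had 298, 347, 345, 373 and 307 normalized reads at 15 °C and 197, 190, 171, 170 and 193 at 20 °C, 1.81-fold higher without overlap (limma adjusted p = 7.1e-09), and grl-14 and qua-1 rose 1.82-fold and 1.74-fold.

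In the gonad, oocyte RNAs were lower while sperm RNAs were little changed. Of 26 oocyte and eggshell genes 23 were lower and 1 higher, at a median of -0.37. cpg-3, an eggshell chondroitin proteoglycan, had 11498, 12747, 12835, 13944 and 12245 normalized reads at 15 °C and 22706, 23843, 24139, 24396 and 23235 at 20 °C, 1.87-fold lower without overlap (limma adjusted p = 3.6e-13). The maturation factor gene oma-2 fell 1.44-fold, the chitin synthase gene chs-1 1.36-fold and the yolk receptor gene rme-2 by 0.53 on the log2 scale. Of 37 germline and meiosis genes 18 were lower and 6 higher, around a median of -0.07. spo-11, which makes meiotic breaks, had 1476 to 1659 normalized reads at 15 °C and 1960 to 2207 at 20 °C (1.33-fold lower, limma adjusted p = 3.1e-08), syp-2 and zim-2 fell 1.23-fold and 1.21-fold, and glp-1, the germline Notch receptor, did not pass (10589 ± 511 against 10287 ± 325 normalized reads, SD, n = 5).

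Of 24 cell cycle and replication genes 8 were lower and 3 higher, both at or below the background. cdc-25.1 had 7482 to 8121 normalized reads at 15 °C and 9159 to 9464 at 20 °C (1.19-fold lower, limma adjusted p = 3.7e-07), and the Aurora kinase genes air-2 and air-1 fell 1.23-fold and 1.19-fold. Sperm genes held 9 higher and 6 lower of 54, below the background in both directions. ssp-35 was the exception of smallest p, with 471, 431, 497, 525 and 463 normalized reads at 15 °C and 156, 190, 180, 170 and 206 at 20 °C, 2.64-fold higher without overlap (limma adjusted p = 5.4e-12), ssp-37 rose 1.74-fold and spe-39 fell 1.315-fold. gsp-3, a sperm phosphatase, stood at 103 ± 19.1 and 103 ± 7.78 normalized reads (SD, n = 5). The msp genes are near-identical, so their single values are uncertain. Early zygotic genes counted 4 lower and 2 higher of 11. pes-10 had 54.3, 45.6, 47.1, 48.7 and 54.1 normalized reads at 15 °C and 143, 130, 136, 162 and 141 at 20 °C, 2.82-fold lower without overlap (limma adjusted p = 8.8e-11), sdz-27 fell 2.21-fold and sdz-24 3.46-fold, while end-3 rose by 0.62 on the log2 scale and end-1 did not pass (log2 fold 0.14 ± 0.19).

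Among chromatin and protein-making genes, core histones were mostly higher and cytosolic ribosomal proteins mostly did not pass. Of 72 core histone genes 30 were tested, and 23 of these were higher and 2 lower, at a median of 0.44. The histone copies are near-identical and their single values uncertain. Since polyadenylated RNA was sequenced, histone RNA without a poly(A) tail is not covered. his-67 had 436, 310, 357, 349 and 368 normalized reads at 15 °C and 179, 194, 174, 182 and 196 at 20 °C, 1.95-fold higher without overlap (limma adjusted p = 2.3e-09), and his-48 and his-37 rose 1.91-fold and 1.35-fold. Linker histones counted 4 higher and 2 lower of 8, with hil-7 (504 to 574 against 762 to 853 normalized reads) 1.47-fold and hil-1 1.22-fold lower and hil-5 1.202-fold higher. Cytosolic ribosomal proteins held 11 higher and 21 lower of 77, both below the background, and the median was -0.02 with limma and 0.00057 when libraries were scaled by size alone, so it has no direction. rpl-24.2 rose 1.49-fold, from 4189 to 4594 normalized reads at 20 °C to 6244 to 6577 at 15 °C, while rps-19 and rps-26 each fell 1.21-fold.

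Mitochondrial ribosomal proteins counted 29 lower and 11 higher of 63 (median -0.08). mrps-34 had 1079 to 1135 normalized reads at 15 °C and 1374 to 1450 at 20 °C (1.28-fold lower, limma adjusted p = 4.8e-08), mrpl-36 fell 1.36-fold and mrpl-37 rose 1.27-fold. Translation factors counted 12 higher and 8 lower of 29, near the background, with eef-1A.2 at 35756 to 41346 against 23935 to 26991 normalized reads (1.56-fold higher), eif-3.F 1.24-fold higher and ife-2 1.34-fold lower. Genes linked to ribosome biogenesis, whether they promote or limit it, counted 9 higher and 3 lower of 18. Among the higher were lpd-7 (24183 to 24926 against 18190 to 19306 normalized reads, 1.30-fold), ncl-1 (1.42-fold) and dao-5 (1.29-fold). Splicing proteins held 7 higher and 9 lower of 22, near the background, with sfa-1 (7698 to 8262 against 6666 to 6953 normalized reads) 1.17-fold higher and snr-5 and snr-7 1.27-fold and 1.38-fold lower.

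Chaperonin and proteasome subunits moved apart. Chaperonin subunits, which fold actin and tubulin, were higher in 6 of 8 cases and lower in 0. cct-5 had 32603, 31516, 33254, 34777 and 30564 normalized reads at 15 °C and 22415, 24074, 24502, 24504 and 24570 at 20 °C, 1.35-fold higher without overlap (limma adjusted p = 3.2e-09), and cct-2 and cct-3 each rose 1.27-fold. Proteasome subunits were lower in 19 of 32 cases and higher in 1, at a median of -0.11. rpn-12 had 3568 to 3778 normalized reads at 15 °C and 4302 to 4735 at 20 °C (1.22-fold lower, limma adjusted p = 2.5e-07), and pas-4 and pbs-7 fell 1.21-fold and 1.196-fold.

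Cytosolic and ER chaperones held 6 higher and 5 lower of 12. hsp-70 was at 890 to 999 against 585 to 683 normalized reads (1.51-fold higher, limma adjusted p = 2.8e-09), hsp-110 rose 1.28-fold and hsp-3, an ER chaperone, fell 1.251-fold. The call of hsp-70 was lost with all 8 groups in 1 fit (adjusted p = 0.108). Small heat shock proteins held 5 higher and 2 lower of 9, with hsp-43 (3142 to 3384 against 2379 to 2540 normalized reads, 1.32-fold), hsp-12.3 (2.04-fold) and hsp-25 (1.35-fold) higher. The log2 folds of the 9 lay between -0.79 and 1.03. The summed level of this list did not rise, at 1461 ± 140 CPM at 15 °C and 1569 ± 97.1 CPM at 20 °C (SD, n = 5). Of 9 genes of mitochondrial chaperones and stress 2 were higher and 2 lower. hsp-60 had 7500 to 8359 normalized reads at 15 °C and 9409 to 10589 at 20 °C (1.252-fold lower, limma adjusted p = 5.2e-07), timm-23 rose 1.35-fold and atfs-1, the regulator of the mitochondrial unfolded protein response, 1.16-fold.

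With a mean of 100 normalized reads or more required, the largest rise without overlap was in old-2, a predicted tyrosine kinase gene. It had 251, 231, 224, 206 and 216 normalized reads at 15 °C and 9.28, 15.3, 20.2, 16.205 and 19.6 at 20 °C. The rise was 13.6-fold (log2 3.77 ± 0.16, limma adjusted p = 1.6e-13). It was followed by W09G12.8 (11.6-fold), F40H7.12 (10.6-fold), fbxa-43 (9.66-fold), Y71H2AR.2 (7.19-fold), K10H10.9 (7.04-fold), T20D4.7 (6.99-fold), fbxa-28 (6.95-fold), fbxa-116 (6.55-fold) and W04G5.7 (6.51-fold). F40H7.12 was the most abundant of these, at 3337 ± 127 normalized reads at 15 °C and 314 ± 25.4 at 20 °C (SD, n = 5). After the lysozyme genes and clec-47, the deepest falls were in C50F7.5 (10.6-fold), F21C10.11 (9.86-fold), C30G12.2 (8.57-fold), Y54G2A.57 (8.21-fold), C32H11.4 (8.12-fold), ZK355.3 (7.93-fold) and dod-6 (6.99-fold). C30G12.2 went from 4933 ± 378 normalized reads at 20 °C to 582 ± 114.01 at 15 °C.

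F-box genes, whose products pick targets for ubiquitin ligases, supplied 3 of these 10 rises, yet as a family they were lower more often than higher. Of 282 tested, 71 were higher and 125 lower, at a median of -0.17, and changes of 2-fold or more numbered 15 and 37. fbxa-182 had 76.0, 91.2, 74.4, 80.7 and 87.1 normalized reads at 15 °C and 361, 380, 353, 353 and 391 at 20 °C, 4.46-fold lower without overlap (limma adjusted p = 1.8e-14). fbxa-42 rose 4.46-fold, with 310 to 360 normalized reads at 15 °C and 68.7 to 85.0 at 20 °C. Members of this family resemble each other, and reads of close copies may be split between them.

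To show where the mutants differ, the 15 against 20 °C effect was compared between genotypes with an interaction term in edgeR's quasi-likelihood fit over 20 libraries. The effect differed in 3386 of 16530 features (20.5%), of which 1316 were more positive (7.96%) and 2070 more negative (12.5%) in the mutants. Which sign prevails depends on the scaling: with RLE size factors the counts were 1792 and 1741, and the share of more positive ones moved from 38.9% to 50.7%. In the wild type alone, 9949 of 15563 features (63.9%) were called by limma, 4750 higher (30.5%) and 5199 lower (33.4%). In the paragraphs that follow, folds within a genotype are from limma, so they need not subtract exactly to the edgeR difference.

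The intestinal list fell further in the mutants. Of its 21 genes 13 had a more negative effect in the mutants and 1 a more positive one (11 and 1 with RLE), with a median of -1.56 in the mutants and -1.04 in the wild type. pgp-1 fell by 1.66 on the log2 scale in the mutants and by 0.36 in the wild type (edgeR adjusted p of the difference 1e-10). elt-2 fell by 1.57 and 0.97 (adjusted p = 0.00084) and lbp-6 by 1.45 and 0.62 (adjusted p = 1.8e-08). Antimicrobial peptides listed by name as epidermal had a more negative effect in 19 of 40 cases and a more positive one in 0. The medians were -1.02 and -0.30. Among them abf-2 fell by 1.70 in the mutants and by 0.45 in the wild type (adjusted p = 4.4e-11). UDP-glucuronosyltransferases (22 more negative and 5 more positive of 62), transthyretin-like genes (20 and 3 of 49) and metal-handling genes (7 and 0 of 9) also had more members on the negative side than the background of 12.5%.

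Yolk and oocyte genes differed the other way. Of the 6 vitellogenins 4 had a more positive effect in the mutants, at a median of -1.70 against -2.44 in the wild type. vit-3 fell by 1.70 in the mutants and by 2.97 in the wild type (edgeR adjusted p of the difference 4.6e-05), whereas the difference for vit-2 and vit-6 was not called. Of 26 oocyte and eggshell genes 16 were more positive and 2 more negative, with medians of -0.37 and -0.64. Intestinal immune effectors counted 11 more positive and 2 more negative of 21. Cytosolic ribosomal proteins had a more negative effect in 47 of 77 cases (39 with RLE) and a more positive one in 0. Their median was -0.02 in the mutants and 0.24 in the wild type, where 63 were called higher.

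**Figure D4:**
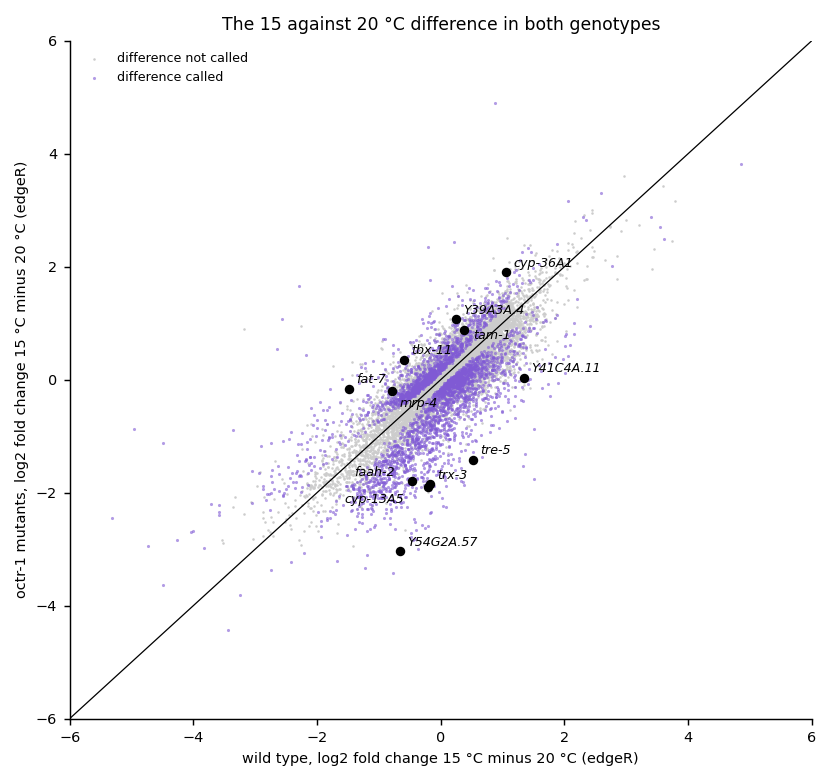
Log2 fold change 15 minus 20 °C in the wild type (x axis) and in octr-1 mutants (y axis), both from edgeR, for 16530 features, with purple points where the difference between genotypes was called, 12 named genes in black, and a line where both effects are equal. More purple points lie below the line (2070) than above it (1316) under TMM scaling.

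The 6 features of smallest p with a more negative effect in the mutants began with tre-5, a trehalase. In the mutants it had 262, 257, 235, 313 and 286 normalized reads at 15 °C and 762, 691, 694, 801 and 703 at 20 °C. It thus fell by 1.43 in the mutants, where it rose by 0.49 in the wild type (both limma). The difference in the edgeR fit was -1.95 (edgeR adjusted p = 4.2e-14). trx-3 differed by -1.68, faah-2, a fatty acid amide hydrolase, by -1.34, cyp-13A5 by -1.69, Y54G2A.57 by -2.38 and Y41C4A.11 by -1.31. Y41C4A.11 did not pass in the mutants (1246 ± 32.8 against 1232 ± 39.9 normalized reads, SD, n = 5), while it rose by 1.30 in the wild type. faah-2 had 988 to 1169 normalized reads at 15 °C and 3450 to 4007 at 20 °C in the mutants.

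On the other side stood fat-7, a stearoyl-CoA desaturase. It had 98.6, 158, 98.5, 113.9 and 131 normalized reads at 15 °C and 130, 128, 132, 145 and 140 at 20 °C in the mutants. These groups overlap and the log2 fold of -0.19 did not pass (limma adjusted p = 0.16), while in the wild type it fell by 1.52, a difference of 1.33 (edgeR adjusted p = 3.2e-08). tbx-11 rose by 0.34 in the mutants and fell by 0.62 in the wild type, and cyp-36A1 rose by 1.88 and 1.03. Y39A3A.4 rose by 1.06 and 0.21, tam-1 by 0.87 and 0.34, and mrp-4 fell by 0.22 and 0.82. Of the octopamine genes, tbh-1 fell further in the mutants (-1.46 against -0.92, edgeR adjusted p of the difference 2.2e-06), and tdc-1 and octr-1 differed in the positive direction. pqm-1 fell by 1.78 in the mutants and by 0.58 in the wild type (adjusted p = 4.2e-11).

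Set beside the other groups of the series as levels, without a test, these genes did not follow a single order. In CPM, vit-2 stood in the mutants at 20831 ± 685 in young adults, 1384 ± 280 in old adults at 15 °C, 4334 ± 256 at 20 °C and 1328 ± 82.5 at 25 °C on day 9 (SD, n = 5 each). The old animals at 15 and 25 °C were thus near each other and below those at 20 °C. ilys-3 was at 0.243 ± 0.097 CPM in young mutants, and at 4.64 ± 0.642, 100 ± 4.09 and 60.7 ± 0.93 in old ones at 15, 20 and 25 °C, so that the old mutants at 15 °C stood nearest to the young. sqst-1 went from 28.3 ± 1.47 CPM in young mutants to 888 ± 39.3 at 15 °C, 477 ± 13.9 at 20 °C and 349 ± 7.69 at 25 °C, and old mutants at 15 °C stood farthest from the young.

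**Figure D5:**
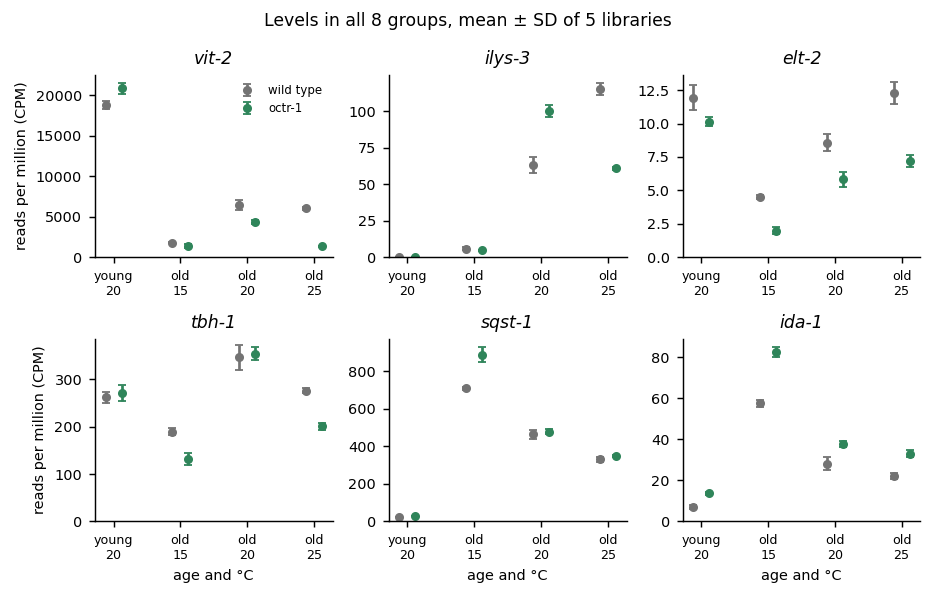
CPM of 6 genes in young adults at 20 °C and old adults at 15, 20 and 25 °C (x axis), as mean ± SD of 5 libraries per group, for the wild type (grey) and octr-1 mutants (green), on linear axes from 0. elt-2 is lowest in old mutants at 15 °C, and sqst-1 and ida-1 are highest there.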

How the data were processed

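Whole-animal RNA was extracted with QIAzol and an RNeasy kit and made into stranded mRNA libraries, per the labels' protocols. Per the submitters' processing notes, the tools were bcl2fastq, HISAT2 2.2.1, featureCounts and DESeq2 1.31.16, and the build was ce10. The counting's strand setting and its handling of reads with several matches are not given in the sources used here. The deposited signal is, per gene, the authors' normalized count, a read count divided by a size factor of the library. The authors also deposited log2 fold changes and p-values, of which the signs alone were used here. All values were whole reads within 0.01 reads once multiplied by the recovered size factor (100% of values).

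Features that reached 10 normalized reads in 5 or more libraries were tested with limma 3.58.1 (trend and robust) on log2(value + 1), with Benjamini-Hochberg adjusted p under 0.05 over all 16083 tested. The difference between genotypes was tested on recovered reads with edgeR 4.0.16 (quasi-likelihood, TMM), since the tables were normalized separately. Because the deposited unit was not raw counts, count tests of the difference between the temperature groups (edgeR, DESeq2 1.42.0) were alternatives. In each simulation, 200 genes were raised in the mutants at 15 °C by folds of 1.25, 1.5 or 2. limma found 49.3%, 82.1% and 95.5% of them, respectively, with 5 false calls among 16084 genes. The genotype test found 32.8%, 58.2% and 75.8%, with 7 false calls among 16530 genes. In the real data 66.5% of features were called by limma, in both directions, so these shares need not hold there.

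The genes named are octr-1, the 10 largest rises and 10 deepest falls with a mean of at least 100 normalized reads and no overlap, up to 3 called members of smallest p per list, all called members of 4 short lists, and the 6 genes of smallest p per direction of the genotype difference. Tissue markers were named besides. The members and lists were chosen with earlier results of these data known. 1 called member of the insulin and TOR pathway list is in the counts of that list, but its own values are not reported here. Genes were grouped in 63 lists by name, and gene names were matched for 41593 of 42048 features. Replicate numbers come from the labels, and libraries with the same number did not vary together (correlations between -0.308 and 0.216), so samples were not paired. Alternatives were other scalings and tools, no filter, each library left out, all 8 groups in 1 fit, a replicate block, a pseudocount of 0.1, and, chosen after seeing the data, replicate 1 of both groups left out. No coordinates or sequences are given, since the reference used for names is of another build.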

Additional observations from a re-analysis of the deposited data

Results flagged for a closer look

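In 25 of 478 groups of 5 libraries, 239 genes at both temperatures, the highest or lowest library stood farther from its nearest neighbour than Dixon's 95% critical value of 0.71 of the group's range. Chance gives about 1 in 20 such groups. Replicate 1 of each temperature held 6 of them. All values here are normalized reads. Replicate 1 at 15 °C was the highest library in vha-3 (808, others 753 to 768). Replicate 2 at 15 °C was the highest library in grl-14 (278, others 226 to 241). Replicate 4 at 15 °C was the highest library in F21C10.11 (32.1, others 20.95 to 23.2), pas-4 (5391, others 4946 to 5002), fmo-2 (830, others 614 to 648) and faah-2 (1169, others 988 to 1039). Replicate 1 at 15 °C was the lowest library in air-2 (2828, others 2966 to 3009), dod-22 (15.4, others 19.9 to 21.2), pdk-1 (1195, others 1372 to 1418), daf-15 (9372, others 10056 to 10257) and mdt-15 (5551, others 6197 to 6384). Replicate 1 at 20 °C was the highest library in air-2 (3927, others 3497 to 3616) and ttr-37 (198, others 175 to 178). Replicate 2 at 20 °C was the highest library in T20D4.7 (196, others 173 to 178) and syp-2 (2162, others 2061 to 2090.1). Replicate 3 at 20 °C was the highest library in sams-1 (1556, others 1406 to 1434). Replicate 4 at 20 °C was the highest library in iglr-2 (7904, others 7255 to 7424). Replicate 1 at 20 °C was the lowest library in cct-5 (22415, others 24074 to 24569.8), aco-2 (25021, others 28709.6 to 29569.7), ugt-25 (897, others 982 to 996) and daf-15 (8390, others 9051 to 9297). Replicate 4 at 20 °C was the lowest library in fbxa-43 (58.8, others 84.0 to 93.1). Replicate 5 at 20 °C was the lowest library in mdh-2 (9554, others 9949 to 10099.9), fmo-2 (211, others 289 to 317) and zip-10 (419, others 455 to 469).

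The 15 against 20 °C effect differed between octr-1 mutants and the wild type in 3386 features, tested with an interaction term. Where the mean reached 100 normalized reads, the differences of smallest p in the positive direction were 1.33 for fat-7, 0.83 for Y39A3A.4, 0.50 for tam-1, 0.58 for mrp-4, 0.95 for tbx-11, 0.84 for cyp-36A1 on the log2 scale. In the negative direction they were -1.95 for tre-5, -1.68 for trx-3, -1.34 for faah-2, -1.31 for Y41C4A.11, -2.38 for Y54G2A.57, -1.69 for cyp-13A5.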

How the results depend on the processing

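The 10699 calls became 10353 to 10909 under the other scalings, tools, filter, pseudocount and block, 9763 with all 8 groups in 1 fit and 12857 with the naming described next. With no filter on low values, features at least 2-fold higher rose from 750 to 1186. With each library left out in turn, calls ranged from 10251 to 10667, those at least 2-fold higher from 732 to 770 and lower from 1356 to 1447, octr-1 from 0.41 to 0.55 on the log2 scale, and genotype differences from 3010 to 3675 (1196 to 1451 more positive, 1709 to 2224 more negative). Without replicate 1 of both groups, chosen after seeing the data, 10663 were called. With a replicate block, 10411 were called and 3291 genotype differences were called, against 3386. Same-numbered libraries did not vary together, and the block ended the calls of aak-2, nhr-66 and daf-9 among the named genes.

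Taking as 20 °C the libraries that the disagreeing table names so, features at least 2-fold higher numbered 1914, lists with more members lower than higher 27 instead of 42, and genotype differences 10559 (5257 more positive, 5302 more negative). The log2 fold of 45 of 231 named genes then changed sign: C32H11.4 1.18, col-8 0.32, col-179 1.59, sqt-3 1.46, dpy-10 0.45, dpy-7 0.0864, qua-1 -0.21, vit-3 2.999, vit-1 2.39, vit-2 0.21, vit-4 2.37, vit-5 0.39, vit-6 0.53, oma-2 0.0347, hil-7 0.74, rps-19 0.47, rps-26 0.0971, hsp-70 -0.78, hsp-3 0.43, hsp-43 -0.16, hsp-60 0.9975, asb-2 0.0369, mdh-2 0.0693, idhb-1 0.12, aco-2 0.19, nhr-68 0.55, acdh-1 3.70, pmt-2 0.38, sams-1 0.84, hyl-2 0.0404, lys-2 1.097, dod-22 1.05, asp-13 1.56, asp-4 0.55, asp-2 0.94, vha-12 0.36, vha-3 0.55, sepa-1 0.29, ins-2 2.80, aak-2 0.55, iglr-2 0.21, tax-2 -0.15, col-19 2.28, lpd-7 -0.18, snr-7 0.0284. No other alternative reversed a named gene, and the 12 genotype difference genes kept their call and direction in every alternative run. Depth limits mostly the genes near 10 normalized reads. Changes of 1.25-fold were found in 49.3% of simulated cases, where only 200 genes were changed.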

Other observations

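Non-coding classes of features were counted separately, without a test between classes. Of 196 features annotated as ncRNA, 77 were higher at 15 °C and 25 lower. The counts were 25 and 11 of 63 lncRNA features, 13 and 3 of 40 snoRNA features, and 87 and 44 of 232 pseudogenes. Over all tested features 31.7% were higher and 34.8% lower, and the higher share of the snoRNA features was near that background. Since polyadenylated RNA was sequenced, RNAs of these classes without a poly(A) tail may not be covered. Of 15192 protein-coding genes, 4751 were higher and 5447 lower.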
